A study of Mus musculus with 9 samples.

Results

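Genes with the symbol Zfp and a number encode zinc finger proteins, and 254 of them were expressed in the long-term haematopoietic stem cells (LT-HSCs) studied here. They were chosen by their symbol, with Zfp36 left out, and by an average of 2 FPKM or more (fragments scaled to transcript length and library size) over all 9 libraries. Of 22322 genes in the table, 369 carried such a symbol, and 115 of these were under 2 FPKM on average, 1 of them at 0 in every library. The mean was the only measured value that chose the members. Just under the limit lay Zfp442 (1.96 FPKM), Zfp276 (1.97 FPKM) and Zfp14 (1.99 FPKM), and just over it lay Zfp568 (2.02 FPKM), Zfp646 (2.04 FPKM) and Zfp990 (2.09 FPKM). Without the WT libraries 5 members would have missed the limit, without the Cxcl10-/- libraries 10, and without the Cxcr3-/- libraries 5, so the counts and medians over the members describe this choice.

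The cells came from bone marrow of 6- to 8-week-old C57BL/6 animals and were gated as CD150+ CD48- CD135- within Lin- Sca-1+ c-Kit+ cells. There were 3 wild-type (WT) mice, 3 Cxcl10-/- mice, which lack an interferon-induced chemokine, and 3 Cxcr3-/- mice, which lack its receptor. Each library came from 500 to 800 cells of 1 mouse, and the labels name no other allele or treatment. The question put to the Zfp genes was whether lower values in Cxcl10-/- cells extended over the family or went with low expression.

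Most mammalian Zfp proteins bind DNA through an array of C2H2 fingers, each a short fold held by a zinc ion between a pair of cysteines and a pair of histidines. Many also carry a Krüppel-associated box (KRAB), whose A box recruits TRIM28 and, through it, SETDB1 and heterochromatin proteins. KRAB zinc finger proteins are best known for silencing transposable elements and imprinted loci, and their genes lie in clusters that grew by repeated duplication. Zfp proteins without a KRAB are a mixed group that includes promoter activators, co-repressors, splicing factors and ribosome assembly factors.

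A KRAB A box was found by sequence pattern in the annotated proteins of 157 members and not in the other 97. Members described as without a KRAB are those in which the pattern found no box, and a diverged box could have been missed. The median member had 11 C2H2 fingers (12 with the box, 7 without). The transcripts of the KRAB members were poor in G and C: their median GC content was 40.5%, against 48.3% in the other members and 49.1% in all 10866 tested genes. The coding stretches below, each of 168 bases, begin at the first cysteine of a finger and cover 2 finger repeats. They are examples of low and high GC content in the part of the gene that the family shares. They were not picked to represent the KRAB members. The first 3 belong to the members with the lowest p in Cxcl10-/- against WT, and the last 2 to the 2 members richest in G and C that averaged 8 FPKM or more, at least 5 fingers and under 10% of sequence shared with other genes. G and C are in capitals, the strand is that of the gene, and coordinates are of GRCm38.
Zfp655: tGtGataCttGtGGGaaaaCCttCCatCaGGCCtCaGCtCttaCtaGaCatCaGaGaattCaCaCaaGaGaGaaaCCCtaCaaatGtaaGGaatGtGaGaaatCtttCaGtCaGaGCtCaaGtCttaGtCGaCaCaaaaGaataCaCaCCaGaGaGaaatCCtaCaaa
Zfp942: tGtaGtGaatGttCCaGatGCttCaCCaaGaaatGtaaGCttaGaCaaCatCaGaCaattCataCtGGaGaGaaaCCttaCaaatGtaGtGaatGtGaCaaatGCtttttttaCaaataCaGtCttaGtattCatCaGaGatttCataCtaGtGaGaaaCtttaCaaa
Zfp931: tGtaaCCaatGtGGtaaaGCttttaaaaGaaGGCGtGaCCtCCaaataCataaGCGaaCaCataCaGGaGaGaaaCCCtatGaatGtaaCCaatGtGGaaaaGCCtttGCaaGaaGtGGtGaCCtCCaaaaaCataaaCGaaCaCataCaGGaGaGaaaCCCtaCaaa
Zfp467: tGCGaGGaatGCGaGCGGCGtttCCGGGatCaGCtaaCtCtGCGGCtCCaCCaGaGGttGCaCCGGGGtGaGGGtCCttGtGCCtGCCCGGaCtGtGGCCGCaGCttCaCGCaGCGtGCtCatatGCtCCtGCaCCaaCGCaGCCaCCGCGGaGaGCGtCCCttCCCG
Zfp12: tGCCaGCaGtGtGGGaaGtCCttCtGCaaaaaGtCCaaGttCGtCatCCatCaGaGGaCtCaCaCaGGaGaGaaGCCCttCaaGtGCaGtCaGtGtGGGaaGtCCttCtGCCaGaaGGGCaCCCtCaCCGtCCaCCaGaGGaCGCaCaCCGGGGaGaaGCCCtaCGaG
The Zfp655 stretch (chr5:145244066-145244233, plus strand) held 40.5% G and C. The Zfp942 stretch (chr17:21928927-21929094, minus strand) held 32.7%. The Zfp931 stretch (chr2:178068112-178068279, minus strand) held 39.9%. The Zfp467 stretch (chr6:48439066-48439233, minus strand) held 66.1%, and the Zfp12 stretch (chr5:143244616-143244783, plus strand) 57.1%. All 5 lie in coding exons of the GENCODE annotation.

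The 9 libraries held between 12098498 and 17904629 expected counts. Cxcl10 was at 0 FPKM in all 3 Cxcl10-/- libraries and between 0.15 and 31.8 FPKM in the other 6. Cxcr3 was between 0 and 0.26 FPKM in WT, so its absence does not check the Cxcr3-/- label. The summed level of 12 LT-HSC markers was 855 to 967 FPKM in WT, 847 to 978 FPKM in Cxcl10-/- and 869 to 938 FPKM in Cxcr3-/-. In Cxcl10-/- against WT, 1 of the 12 was called lower and 0 higher. Ly6a (Sca-1), the largest part of the sum, measured 271, 338 and 329 FPKM in WT and 320, 379 and 307 FPKM in Cxcl10-/-. Kit measured 98.1, 110 and 106 FPKM in WT and 81.4, 72.3 and 45.8 FPKM in Cxcl10-/-. Slamf1 (CD150) measured 6.87, 7.40 and 5.23 FPKM in WT and 0.69, 0.71 and 4.12 FPKM in Cxcl10-/-. The Cxcl10-/- libraries stood apart in several ways that went with each comparison using them. Mitochondrial transcripts took 3.57% to 4.13% of their counts, against 12.6% to 13.1% in WT and 10.2% to 11.2% in Cxcr3-/-. The 8 endothelial markers, of which 5 were called higher, summed to 420 to 615 FPKM, against 6.46 to 20.3 FPKM in WT and 4.33 to 39.8 FPKM in Cxcr3-/-. The 7 stromal and bone markers, of which 4 were called higher, summed to 82.3 to 335 FPKM, against 1.86 to 6.25 FPKM in WT and 1.00 to 2.67 FPKM in Cxcr3-/-. The 5 macrophage markers summed to 29.5 to 57.3 FPKM, against 7.16 to 21.03 FPKM in the other 6 libraries, and the 4 erythroid markers to 31.5 to 238 FPKM, against 4.18 to 28.4 FPKM, with 1 called higher in each list. Between 12561 and 13910 genes were above 0, against 14510 to 18346 in the other 6 libraries. The part of these differences in the Zfp results was not tested, and in bulk libraries fewer cells of a type and less RNA per cell cannot be told apart.

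Among all expected counts, mitochondrial ones included, the Zfp members made up a smaller share in Cxcl10-/- cells, and the KRAB members carried this difference. Together the 254 members took 0.980 ± 0.022% of a WT library (mean ± SD of 3), 0.853 ± 0.019% of a Cxcl10-/- library and 0.945 ± 0.055% of a Cxcr3-/- library. The KRAB members took 0.529%, 0.538% and 0.507% in WT mice, 0.386%, 0.397% and 0.369% in Cxcl10-/- mice and 0.500%, 0.472% and 0.428% in Cxcr3-/- mice. All 3 Cxcl10-/- values lay below all 6 others. The members without the box took 0.447%, 0.465% and 0.454% in WT, 0.481%, 0.464% and 0.462% in Cxcl10-/- and 0.508%, 0.449% and 0.478% in Cxcr3-/-, and these groups overlapped. Mitochondrial counts are part of each total and took 3.57% to 4.13% of Cxcl10-/- libraries, against 12.6% to 13.1% of WT libraries. More of each Cxcl10-/- total was thus left to all other genes, and the overlap is stated for this denominator only. No member was at 0 in a WT library, while 3, 3 and 6 were at 0 in those of Cxcl10-/- mice and 0, 0 and 1 in those of Cxcr3-/- mice. These were 1.18%, 1.18% and 2.36% of the members in the Cxcl10-/- libraries, beside 3.24%, 1.44% and 2.49% of all tested genes at 0 there. In the WT libraries 0.80%, 0.58% and 0.41% of all tested genes were at 0. Zeros were thus more frequent in Cxcl10-/- than in WT among the members and among all tested genes. The tested genes reach down to 1 FPKM and the members to 2 FPKM, so their shares are not at a like level. On the scale of log2 CPM (counts scaled to library size), the median KRAB member deviated from its WT mean by -0.72, -0.70 and -0.50 in the Cxcl10-/- libraries. The median member without the box deviated by -0.14, 0.03 and 0.12.

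**Figure D1:**
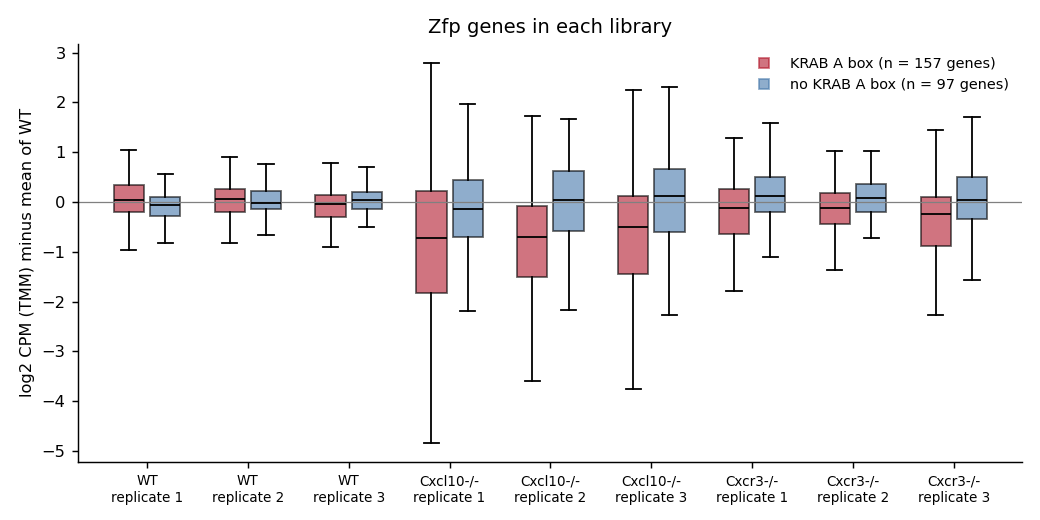
Deviation of each Zfp gene from its mean in WT (log2 CPM with TMM factors, vertical axis) in each of the 9 libraries, for 157 members with a KRAB A box and 97 without. Boxes span the quartiles with the median as a line, whiskers reach 1.5 times the box, and genes beyond them are not drawn; the KRAB boxes of the 3 Cxcl10-/- libraries have medians of -0.72, -0.70 and -0.50.

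In Cxcl10-/- against WT, 10 members were called lower and 0 higher by edgeR's quasi-likelihood test at an adjusted p under 0.05. The called share was 3.94% of the members, beside 3.70% lower and 3.52% higher among all tested genes, so the share called lower was near the background. At an unadjusted p under 0.05 there were 49 lower and 8 higher members (19.3% and 3.15%), beside 11.99% lower and 12.28% higher among all tested genes. The distribution as a whole was displaced: the median log2 fold change was -0.30 over the members and 0.06 over all tested genes, and 159 of 254 members (62.6%) had a negative value, against 46.3% of all tested genes. Overlap between libraries was counted over the genes in CPM with TMM factors, while single genes are described by their FPKM. The 3 Cxcl10-/- libraries lay entirely below the 3 WT libraries in 60 members (23.6%, background 15.4%). They lay entirely above in 16 members (6.30%, background 14.8%). KRAB members had a median of -0.58, with 113 of 157 negative and 9 called lower. Members without the box had a median of 0.01, with 46 of 97 negative and 1 called lower, Zfp24.

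The number of calls varied with the test and the libraries. DESeq2 called 29 members lower and 1 higher (background 7.18% and 6.61%), and limma on log2(FPKM + 1) called 15 lower and 2 higher (background 3.18% and 6.10%). Without WT replicate 1, 2 or 3 edgeR called 3, 4 or 5 lower, without Cxcr3-/- replicate 3 it called 5, and without Cxcl10-/- replicate 2 or 3 it called 16 or 21.

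Zfp655, a KRAB member whose human counterpart is known as the Vav-interacting factor VIK, had the lowest p. It measured 43.5, 28.1 and 33.4 FPKM in WT, 5.60, 12.5 and 7.98 FPKM in Cxcl10-/- and 29.6, 17.7 and 16.4 FPKM in Cxcr3-/-. The 3 Cxcl10-/- libraries lay below the other 6. The log2 fold change against WT was -1.73 ± 0.26 (SE; adjusted p = 0.00424), and the call held in 18 of 18 alternative analyses. No 50-base word of its transcript was found in another gene.

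Zfp942, a KRAB member on chromosome 17, measured 17.1, 19.1 and 16.02 FPKM in WT, 5.55, 6.74 and 5.18 FPKM in Cxcl10-/- and 14.6, 10.9 and 10.2 FPKM in Cxcr3-/-. The groups did not overlap, with Cxcr3-/- between the others. Its log2 fold change in Cxcl10-/- against WT was -1.67 ± 0.28 (adjusted p = 0.00646). Zfp931, a KRAB member on chromosome 2, measured 50.1, 61.3 and 36.7 FPKM in WT, 15.4, 11.4 and 11.4 FPKM in Cxcl10-/- and 47.6, 28.1 and 63.99 FPKM in Cxcr3-/-. Only the Cxcl10-/- libraries stood apart among the 3 groups, with a log2 fold change against WT of -2.17 ± 0.37 (adjusted p = 0.00673). Both calls held in 17 of 18 alternatives and were lost when GC content and length were corrected for, with values of -0.77 (adjusted p = 0.0878) for Zfp942 and -0.91 (adjusted p = 0.161) for Zfp931.

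Zfp979, a KRAB member on chromosome 4, measured 32.7, 35.9 and 23.4 FPKM in WT, 12.1, 3.54 and 9.75 FPKM in Cxcl10-/- and 15.3, 20.8 and 9.27 FPKM in Cxcr3-/-. Cxcl10-/- lay below WT in every library and overlapped with Cxcr3-/- in FPKM. On the scale of log2 CPM the Cxcl10-/- libraries of Zfp979 lay below those of Cxcr3-/-. The log2 fold change was -1.92 ± 0.41 (adjusted p = 0.0172), and the call held in 16 of 18 alternatives, being lost without WT replicate 1 (adjusted p = 0.0922) and with the GC and length correction (adjusted p = 0.273).

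Zfp54, a KRAB member of the chromosome 17 cluster, measured 16.1, 13.8 and 6.10 FPKM in WT, 1.35, 0.06 and 0 FPKM in Cxcl10-/- and 8.62, 7.01 and 3.74 FPKM in Cxcr3-/-. It was close to absent from the Cxcl10-/- libraries and present in all others. With a log2 fold change of -4.48 ± 1.21 (adjusted p = 0.0448) it had the lowest value of any member. That value depended on Cxcl10-/- replicate 1, without which it was -8.28, and it lay between -4.84 and -3.90 with each other library left out. The call held in only 9 of 18 alternatives and was lost without each WT library, each Cxcr3-/- library or Cxcl10-/- replicate 2 in turn (highest adjusted p = 0.145).

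Among the other 5 called members, Zfp97 and Zfp966 are uncertain, since 83.1% and 89.6% of the 50-base words of their transcripts also occur in other genes and reads could be split between them. Zfp97 measured 15.7, 13.8 and 9.38 FPKM in WT and 0.38, 2.62 and 2.54 FPKM in Cxcl10-/-, a log2 fold change of -2.89 ± 0.72 (adjusted p = 0.0341). Zfp966 measured 12.8, 7.48 and 2.89 FPKM in WT and 1.45, 1.90 and 1.38 FPKM in Cxcl10-/-, a log2 fold change of -2.43 ± 0.67 (adjusted p = 0.0482). Neither gene's WT and Cxcl10-/- libraries overlapped. Zfp68 measured 32.1, 37.6 and 30.0 FPKM in WT and 9.41, 25.3 and 16.1 FPKM in Cxcl10-/- (log2 fold change -1.01 ± 0.28, adjusted p = 0.0487). Zfp52 measured 20.2, 17.1 and 11.8 FPKM in WT and 5.22, 10.6 and 3.21 FPKM in Cxcl10-/- (log2 fold change -1.45 ± 0.40, adjusted p = 0.0488). Zfp24, in which no KRAB A box was found, is known for its part in myelination. It measured 24.1, 23.1 and 26.7 FPKM in WT and 9.53, 18.99 and 22.8 FPKM in Cxcl10-/- (log2 fold change -0.87 ± 0.24, adjusted p = 0.0489). The last 4 calls lay at the edge of the threshold. The call held in 12 of 18 alternatives for Zfp97, in 6 for Zfp52 and Zfp24 each, and in 5 for Zfp966 and Zfp68 each.

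**Figure D2:**
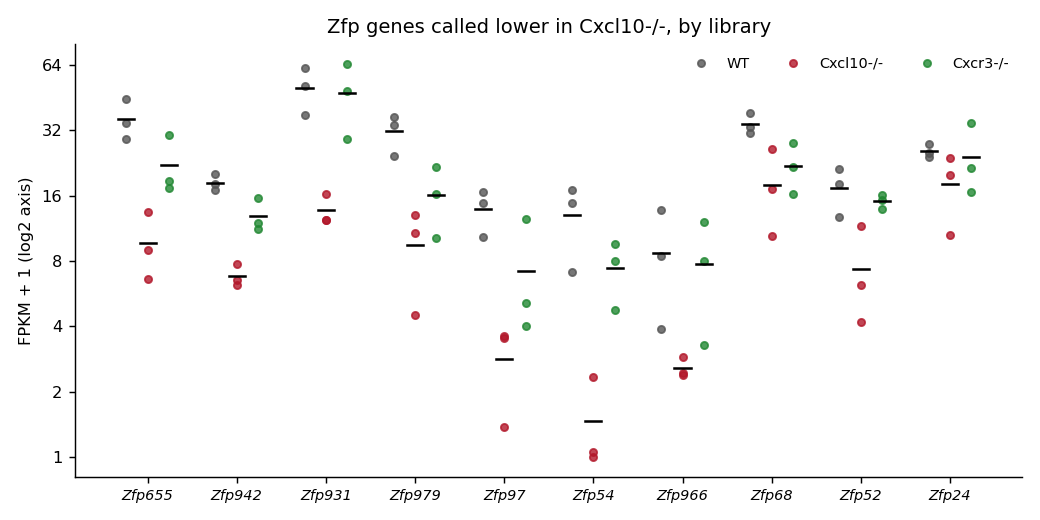
FPKM + 1 (log2 axis) of the 10 members called lower in Cxcl10-/- against WT, in order of p, with 1 point per library for WT, Cxcl10-/- and Cxcr3-/- and the group mean as a bar. In all 10 the 3 Cxcl10-/- points lie below the 3 WT points; in Zfp24 the highest Cxcl10-/- point (22.8 FPKM) is close to the lowest WT point (23.1 FPKM).

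No member passed the test in the upward direction. The 3 with the lowest p were Zfp512, Zfp329 and Zfp511, and no KRAB A box was found in any of them. Zfp512 measured 11.1, 11.5 and 11.8 FPKM in WT and 14.5, 35.0 and 19.1 FPKM in Cxcl10-/- (log2 fold change 1.11 ± 0.37, adjusted p = 0.0869). Zfp329 measured 10.9, 15.9 and 9.96 FPKM in WT and 24.96, 21.8 and 23.8 FPKM in Cxcl10-/- (log2 fold change 0.75 ± 0.26, adjusted p = 0.0967). Zfp511 measured 20.99, 22.4 and 18.9 FPKM in WT and 39.6, 33.4 and 41.9 FPKM in Cxcl10-/- (log2 fold change 0.73 ± 0.28, adjusted p = 0.140). The WT and Cxcl10-/- libraries of all 3 did not overlap.

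The lower values were not limited to weakly expressed members, and their relation to the level below 4 FPKM depended on the choice of genes. Bands of mean FPKM gave a median log2 fold change, in Cxcl10-/- against WT, of 0.15 over 69 members at 2 to 4 FPKM, -0.24 over 69 at 4 to 8 FPKM, -0.57 over 58 at 8 to 16 FPKM and -0.39 over 58 at 16 FPKM and over. Other tested genes of the same bands had medians of 0.17, 0.08, 0.05 and 0.04. The 10 members that passed 2 FPKM only through the Cxcl10-/- libraries, where they were high, all lay in the lowest band and had positive values; the other 59 of that band had a median of -0.17. The 35 tested Zfp genes at 1 to 2 FPKM, under the limit for members, had a median of -0.41, with 22 negative and 1 called lower, against 0.14 over 981 other tested genes at that level. The calls among members were 0, 3, 2 and 5 from the lowest band to the highest, or 0%, 4.35%, 3.45% and 8.62% of the members, beside 1.26%, 2.60%, 2.86% and 5.99% called lower among other tested genes, while the median standard error was 0.78, 0.55, 0.44 and 0.30, so the lowest band was also the least precise. The sign of the lowest band was not stable: it was -0.14 with limma on log2(FPKM + 1), and -0.18 and -0.05 without Cxcl10-/- replicate 1 and 2. With bands set by the mean over the WT and Cxcr3-/- libraries, the lowest band had a median of 0.09. Within the KRAB members the band medians were -0.09, -0.49, -0.79 and -0.71, and within the others 0.32, 0.13, 0.12 and -0.03. Spearman's rho between mean FPKM and log2 fold change was -0.18 over the 254 members, which share their libraries and include the 10 just described.

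**Figure D3:**
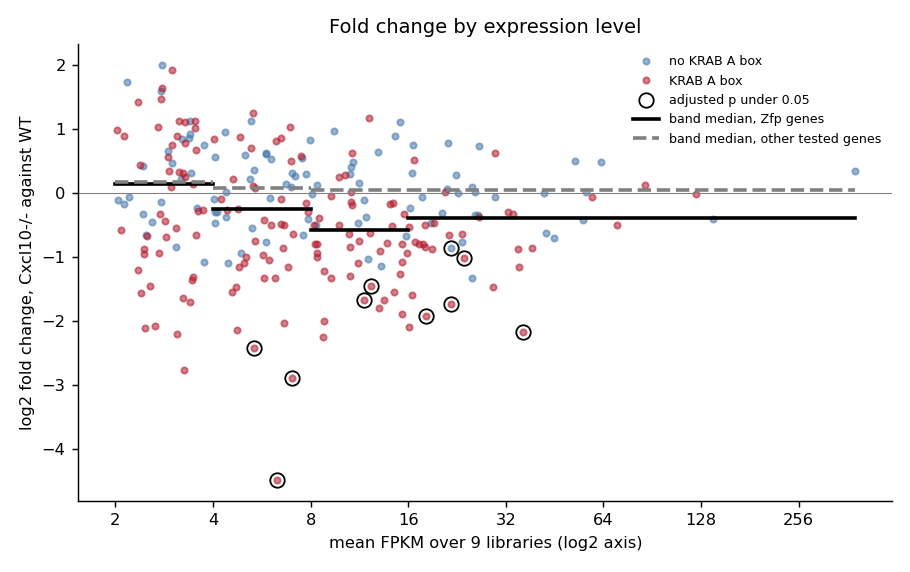
Log2 fold change in Cxcl10-/- against WT (vertical axis) of each member against its mean FPKM over 9 libraries (log2 axis). Black bars are the band medians of the members (0.15, -0.24, -0.57 and -0.39) and dashed grey bars those of other tested genes. The lowest band is at -0.17 without the 10 members that passed the limit only through the Cxcl10-/- libraries. It is at 0.09 with bands set by the WT and Cxcr3-/- libraries. Circles mark the 10 called members, none of which lies under 4 FPKM.

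The fold changes went with the GC content of the transcript, in the members and in other genes alike. The 37 members under 38% GC had a median log2 fold change of -0.84, with 36 of 37 negative (97.3%) and 5 called lower (13.5%), and 64 members at 38% to 41% had -0.76. The median was -0.36 over 48 members at 41% to 44%, 0.10 over 38 at 44% to 48%, 0.29 over 42 at 48% to 54% and 0.48 over 25 at 54% and over. Other genes that averaged 2 FPKM or more had -0.71, -0.43, -0.32, -0.07, 0.21 and 0.46 in the same bands. Under 38% GC, 83.1% of the 236 other genes were negative and 22.5% were called lower, a larger called share than among the members. In the 38% to 41% band the members with a KRAB had -0.87 (n = 48), those without -0.27 (n = 16) and other genes -0.43. At 44% to 48% the order was the opposite, with 0.57 over 23 KRAB members and -0.09 over 15 without. Spearman's rho between GC content and log2 fold change was 0.57 over the members, 0.49 within the KRAB members, 0.49 within the others and 0.43 over all tested genes. These are descriptions across genes that share libraries and, in families, ancestry. The members include the 10 that passed the limit only through the Cxcl10-/- libraries. None of those had a negative value, their median log2 fold change was 1.45 and their median GC content was 51.9%. The member medians of the upper GC bands and the rho of the members are thus partly set by the choice of members. Zfp467, the example rich in G and C without a KRAB, measured 64.9, 59.6 and 78.6 FPKM in WT and 93.4, 65.1 and 63.8 FPKM in Cxcl10-/- (log2 fold change 0.48 ± 0.31, adjusted p = 0.371), at the median of its GC band. Zfp12, the example with a KRAB, measured 7.56, 7.71 and 10.9 FPKM in WT and 3.66, 9.40 and 7.33 FPKM in Cxcl10-/- (log2 fold change -0.50 ± 0.37, adjusted p = 0.438), below the median of 0.29 of its GC band. Both genes' groups overlapped.

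**Figure D4:**
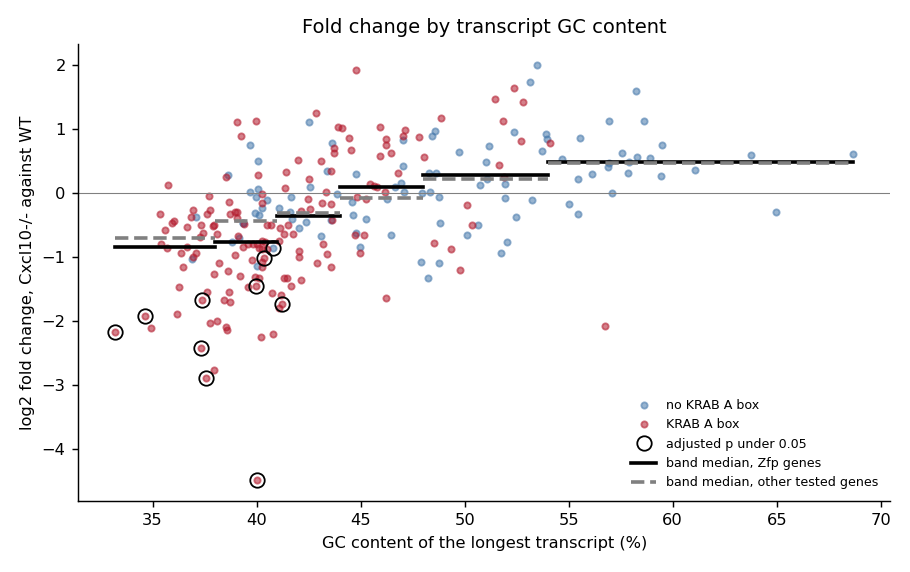
Log2 fold change in Cxcl10-/- against WT (vertical axis) of each member against the GC content of its longest transcript (horizontal axis). Band medians of the members (black) climb from -0.84 under 38% to 0.48 at 54% and over, and those of other tested genes (dashed grey) from -0.71 to 0.46. The members include the 10 that passed the limit only through the Cxcl10-/- libraries, all positive, with a median GC content of 51.9%.

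When each library was corrected for a smooth trend in GC content and length, the median of the members became 0.20, with that of all tested genes at 0.21, up from 0.06. The correction left KRAB members at 0.15 and the others at 0.23. Band medians by level were then 0.48, 0.17, -0.04 and 0.19. With it 1 member was called lower (background 1.46%), Zfp655 at -1.12 (adjusted p = 0.0158), and 7 higher (background 5.47%): Zfp706, Zfp950, Zfp330, Zfp991, Zfp326, Zfp329 and Zfp512. Zfp991 shows how much the correction moves a gene poor in G and C: its log2 fold change was -0.32 before (adjusted p = 0.316) and 0.73 after (adjusted p = 0.0333), from FPKM of 38.7, 35.8 and 38.6 in WT and 30.8, 32.6 and 31.0 in Cxcl10-/-. A correction of this kind removes any difference that goes with composition, whether it arose in the cells or in the library, and these cannot be told apart here.

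The composition of the promoter followed the fold change less closely. In the RefSeq table of 250 bases before to 50 after a gene's start (GRCm38.p6), 211 members had an entry. Their median promoter GC content was 54%, with 51.3% in KRAB members, 59.8% in the others and 60.7% in all tested genes with an entry. Over those 211 members Spearman's rho with the log2 fold change was 0.25 for promoter GC and 0.60 for transcript GC. The median number of CG dinucleotides per promoter was 10 in KRAB members and 19 in the others.

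Members with more fingers and with closer copies had lower medians. The median log2 fold change in Cxcl10-/- against WT was 0.06 over 35 members with 0 to 4 fingers, -0.12 over 70 with 5 to 9, -0.45 over 96 with 10 to 14 and -0.50 over 53 with 15 and over. The median GC content of these 4 groups was 47.1%, 45.6%, 41.6% and 40.1%, and with the GC and length correction their medians were 0.20, 0.26, 0.23 and 0.15. By the share of 50-base words found in other genes, it was -0.08 over 150 members under 1%, -0.41 over 46 at 1% to 10%, -0.50 over 41 at 10% to 50% and -1.16 over 17 at 50% and over. Here the median GC content was 44.5%, 41.4%, 39.6% and 38.4%. With the GC and length correction the last group had -0.50. Fractional counts, which arise where reads are divided between genes or transcripts, made up 35.6% of the members' values and 19.8% of those of all tested genes.

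The genomic clusters of the family differed in direction. Of the members, 118 lay in 16 runs of at least 4 genes with starts less than 500 kb apart. The longest run, chr17:21008903-23564238, held 21 members, of which 20 have a KRAB and which include Zfp54, Zfp52, Zfp942 and Zfp760. Its median log2 fold change was -0.93, with 19 of 21 negative and 3 called lower, at a median GC content of 38.2%. The run at chr13:67038596-67827002 held 17 KRAB members with a median of -0.50 and 15 negative, none called. The 6 members at chr4:147132038-147848366, among them Zfp979, were all negative with a median of -1.19. In contrast, the 12 members at chr7:29768552-30169750 had a median of 0.44 at 46.2% GC, and the 7 at chr7:127233061-127885996 a median of 0.66 at 53.2% GC. These values are partly set by the choice of members, since 1 of the 12 and 3 of the 7 passed the limit only through the Cxcl10-/- libraries; without them the medians were 0.32 over 11 and 0.43 over 4. With the GC and length correction the medians of these 5 runs were -0.01, 0.25, -0.31, 0.62 and 0.54. Neighbouring members share sequence and are not independent.

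Members with a described function were taken from a list of 20, of which 18 passed the limit. Zfp57, which protects imprints, and Zfp335 did not reach it. None of the 18 was called by edgeR in either knockout against WT, though Zfp326 was called higher in Cxcl10-/- with the GC and length correction, as given above. Among the KRAB members of the list, Zfp445, which guards imprinting control regions, measured 21.9, 18.6 and 17.0 FPKM in WT, 21.7, 26.5 and 14.5 FPKM in Cxcl10-/- and 22.0, 26.0 and 19.4 FPKM in Cxcr3-/-, and the groups overlapped. Zfp809, which silences retroviral DNA in stem cells, measured 27.7, 30.6 and 14.1 FPKM in WT and 24.7, 13.5 and 12.6 FPKM in Cxcl10-/- (log2 fold change -0.65 ± 0.38, adjusted p = 0.326). Zfp568, which represses a placental Igf2 transcript, was the member with the lowest mean level, at 1.34, 1.10 and 0.73 FPKM in WT and 2.99, 5.31 and 1.35 FPKM in Cxcl10-/- (log2 fold change 0.98 ± 0.56, adjusted p = 0.311). It passed the limit only through the Cxcl10-/- libraries.

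Among the listed members without a KRAB, the promoter activator Zfp143 had a log2 fold change of 0.30 ± 0.61 in Cxcl10-/- against WT, and Zfp410, known for activating Chd4, had -0.62 ± 0.32 (adjusted p = 0.257). The pluripotency factor Zfp281 measured 17.0, 17.6 and 19.1 FPKM in WT and 13.4, 12.7 and 9.91 FPKM in Cxcl10-/-, with no overlap and a log2 fold change of -0.67 ± 0.23 (adjusted p = 0.0911). Zfp521, a regulator of haematopoietic progenitors, measured 5.90, 9.25 and 12.6 FPKM in WT and 4.89, 5.69 and 6.95 FPKM in Cxcl10-/-, which overlapped. The spindle protein Zfp207 was the second most abundant member, at 127, 162 and 150 FPKM in WT, 118, 100.9 and 114 FPKM in Cxcl10-/- and 167, 159 and 157 FPKM in Cxcr3-/-. Its Cxcl10-/- libraries lay below the others (log2 fold change against WT -0.41 ± 0.15, adjusted p = 0.113). The ribosome assembly factors Zfp622 and Zfp593 had log2 fold changes of 0.78 ± 0.38 (adjusted p = 0.231) and 0.41 ± 0.48 (adjusted p = 0.650), with overlap between WT and Cxcl10-/-. In the other 8 (Zfp148, Zfp217, Zfp91, Zfp106, Zfp326, Zfp318, Zfp384 and Zfp746) the pattern found no KRAB A box. Their log2 fold changes lay between -0.93 and 0.32.

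The genes of the proteins that KRAB members work with had values on both sides of 0. Of 30 listed genes of this machinery, all of which were tested, 2 were called higher by edgeR in Cxcl10-/- against WT (6.67%, background 3.52%), 0 lower (background 3.70%), and the median log2 fold change was 0.12. At an unadjusted p under 0.05 there were 6 higher (20%) and 5 lower (16.7%), beside 12.28% higher and 11.99% lower among all tested genes. The difference between these genes and the Zfp members was not tested. Cbx1, a heterochromatin protein that reads the silencing mark, measured 112, 116 and 103 FPKM in WT and 222, 196 and 270 FPKM in Cxcl10-/- (log2 fold change 0.85 ± 0.16, adjusted p = 0.0115). Mphosph8, a subunit of the HUSH silencing complex, measured 29.7, 27.1 and 26.8 FPKM in WT and 46.2, 52.1 and 60.7 FPKM in Cxcl10-/- (log2 fold change 0.84 ± 0.20, adjusted p = 0.0290). The libraries of both genes did not overlap. Trim28, the KRAB-binding scaffold, measured 29.9, 47.6 and 45.2 FPKM in WT and 52.3, 66.5 and 44.1 FPKM in Cxcl10-/- (log2 fold change 0.32 ± 0.20, adjusted p = 0.369), and Setdb1, the methyltransferase it brings, had 0.04 ± 0.28. On the lower side, Tasor, another HUSH subunit, had -0.73 ± 0.22 (adjusted p = 0.0622), and Uhrf1, Atrx, Smarcad1 and Morc3 had -0.79, -0.37, -0.54 and -0.56, none of which passed (highest adjusted p = 0.187).

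In Cxcr3-/- against WT no member passed edgeR's test, and none of the 10866 tested genes did (background 0.00% in each direction). At an unadjusted p under 0.05 there were 2 higher and 3 lower members (0.79% and 1.18%). Among all tested genes there were 257 higher and 424 lower (2.365% and 3.902%). DESeq2 called 13 of the tested genes higher and 55 lower, none of them members. The median log2 fold change was -0.11 over the members and 0.02 over all tested genes, with -0.21 over the KRAB members and 0.09 over the others. In CPM, the 3 Cxcr3-/- libraries lay entirely below WT in 26 members (10.2%, background 9.03%) and entirely above in 14 (5.51%, background 9.81%). Spearman's rho with transcript GC content was 0.45 over the members and 0.19 over all tested genes. This comparison and the last share their WT libraries.

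The members with the lowest p in Cxcr3-/- against WT did not pass. Zfp488, known for its part in oligodendrocyte differentiation, measured 16.2, 16.1 and 22.8 FPKM in WT and 58.2, 13.9 and 75.9 FPKM in Cxcr3-/-, and the groups overlapped (log2 fold change 1.37 ± 0.47, adjusted p = 0.673). Zfp629 measured 1.62, 2.05 and 1.46 FPKM in WT and 3.19, 4.32 and 4.82 FPKM in Cxcr3-/- (log2 fold change 1.06 ± 0.41, adjusted p = 0.717), and Zfp275 had 0.65 ± 0.33 (adjusted p = 0.837). On the lower side were Zfp706 (-0.39 ± 0.14, adjusted p = 0.693), Zfp979 (-0.99 ± 0.40, adjusted p = 0.744) and Zfp942 (-0.61 ± 0.27, adjusted p = 0.779).

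Between the knockouts, 10 members were called higher in Cxcr3-/- than in Cxcl10-/- and 1 lower (background 5.10% higher and 5.41% lower, against 3.94% and 0.394% of the members). The median log2 fold change was 0.16 over the members and -0.05 over all tested genes. Of the 10 members higher in Cxcr3-/-, 4 were also among those lower in Cxcl10-/- against WT, namely Zfp655, Zfp942, Zfp931 and Zfp24, and these comparisons share the Cxcl10-/- libraries. Zfp488 measured 8.64, 10.1 and 4.74 FPKM in Cxcl10-/-, below all 3 Cxcr3-/- libraries given above, with a log2 fold change of 2.70 ± 0.49 (adjusted p = 0.00741). Zfp706, a small single-finger protein and the most abundant member, measured 424, 354 and 325 FPKM in WT, 673, 495 and 504 FPKM in Cxcl10-/- and 165, 276 and 231 FPKM in Cxcr3-/-. The groups did not overlap in any pair, and the log2 fold change in Cxcr3-/- against Cxcl10-/- was -0.72 ± 0.14 (adjusted p = 0.00848). Both calls held in 18 of 18 alternatives. Zfp217, a co-repressor subunit, measured 3.49, 2.10 and 2.75 FPKM in Cxcl10-/- and 6.58, 5.71 and 8.30 FPKM in Cxcr3-/- (log2 fold change 1.33 ± 0.34, adjusted p = 0.0278, held in 8 of 18 alternatives). The remaining called members, Zfp871, Zfp317, Zfp422 and Zfp760, had log2 fold changes of 1.06, 0.93, 0.83 and 1.05, and their calls held in 7, 6, 9 and 4 of 18 alternatives.

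The next most abundant members, Zfp560, Zfp950 and Zfp932, all have a KRAB and a GC content of 40.2%, 35.8% and 37.4%. Their log2 fold changes in Cxcl10-/- against WT were -0.01 ± 0.20, 0.13 ± 0.30 and -0.50 ± 0.34, and none passed. Zfp560 measured 126, 124 and 127 FPKM in WT, 142, 127 and 145 FPKM in Cxcl10-/- and 104, 92.6 and 121 FPKM in Cxcr3-/-. Its Cxcl10-/- libraries thus lay at or above WT in FPKM, so low GC content and a KRAB did not go with a lower level in every member.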

How the data were processed

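The table deposited by the authors gives, per the file headers, FPKM and expected counts for each of 9 libraries of LT-HSC RNA, which was amplified (Discover-sc WTA Kit V2, per the design text) before library preparation with the TruePrep kit, per the labels. The deposited expected counts are taken as such because 87.1% of them are whole numbers and the rest fractions. Tools named in the submitters' processing notes are RSEM, StringTie, HISAT2 and fastp. For versions, genome build and FPKM denominator, nothing is given in the sources used here, and no batch or litter is named. The reads carry no molecular identifiers, so counting error understates the error of a value.

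Expected counts were rounded and the 10866 genes averaging 1 FPKM or more were fitted together with edgeR 4.0.16 (TMM factors, quasi-likelihood test, all 3 genotypes, no block) in R 4.3.3. Genes were called at a Benjamini-Hochberg adjusted p under 0.05 over all 10866. Each log2 fold change is given with its standard error (SE) derived from the fit (3 libraries per group), and each mean level with its SD. The code of the fit was also run on counts simulated with known changes. Those counts had no trend in GC content, so that run does not show how the fit performs on these libraries. DESeq2 1.42.0, limma 3.58.1 on log2(FPKM + 1) and + 0.1, other filters, each library left out, and library offsets from smoothing splines (6 degrees of freedom) over GC content and length were the alternatives. GC content and length came from the longest GENCODE M21 transcript (GRCm38), with 22267 of 22322 identifiers matched. KRAB A boxes and fingers were found by sequence pattern in annotated proteins. The members, lists and tests were chosen with earlier results of these data known.

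Named were Zfp54, the 20 listed members, up to 10 members per direction with the lowest p among those called in a pair of genotypes (3 where fewer than 3 were called) and the 5 most abundant. Zfp467 and Zfp12 were chosen for sequence by GC content, and Zfp991, Zfp330 and the genes outside the family after their values were seen.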

Additional observations from a re-analysis of the deposited data

How the results depend on the processing

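The direction of the member median in Cxcl10-/- against WT (-0.30) was kept in all alternatives other than the GC and length correction, where it was 0.20. It was -0.39 with limma on log2(FPKM + 0.1), -0.44 with a replicate block, -0.41 over members with at least 5 FPKM, and -0.34 to -0.26 with each library left out. The 10 members lower became 29 with DESeq2, 26 with no filter, 6 with filterByExpr, 1 with the correction, 4 with only the 2 groups compared and 3 to 21 with each library left out. The 0 higher became 1 with DESeq2, 1 with no filter, 2 with limma at either pseudocount, 7 with the correction and 0 to 2 with each library left out. All genes called, 785, became 1498 with DESeq2, 1183 with no filter, 442 with the block, 414 with only the 2 groups and 193 to 1003 with each library left out.

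In Cxcr3-/- against WT, all genes called numbered 0, but 68 with DESeq2, 38 with no filter (1 member higher) and 0 to 6 with each library left out. Members called stayed at 0 in both directions when libraries were left out. The median of -0.11 was -0.029 with the correction and -0.16 to -0.053 with each library left out. In Cxcr3-/- against Cxcl10-/-, the 10 members higher became 19 with DESeq2, 2 with the correction, 3 with only the 2 groups and 3 to 17 with each library left out. The 1 lower became 5 with DESeq2, 4 with no filter, 3 and 2 with limma at pseudocounts of 1 and 0.1, 9 with the correction and 1 to 3 with each library left out. The median of 0.16 was 0.33 with limma on log2(FPKM + 0.1), -0.17 with the correction, 0.29 with the block, 0.27 at 5 FPKM and over, and 0.12 to 0.26 with each library left out. All genes called, 1142, became 1814 with DESeq2, 423 with only the 2 groups and 423 to 1407 with each library left out.

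The level bands of 2 to 4, 4 to 8, 8 to 16 and 16 FPKM and over gave 0.48, 0.17, -0.035 and 0.19 with the correction. The lowest band gave -0.17 without the 10 members that passed the limit only through the Cxcl10-/- libraries, an alternative chosen after the data were seen. It gave -0.14 and -0.32 with limma at pseudocounts of 1 and 0.1, -0.19 with the block and -0.18 to 0.15 with each library left out. With bands set by the WT and Cxcr3-/- libraries it gave 0.088. The 4 to 8 band gave -0.34 with limma at 0.1, -0.37 with the block and -0.35 to -0.11 with each library left out, the 8 to 16 band -0.67 to -0.50, and the highest band -0.32 with limma at 1, -0.52 with bands set by the WT and Cxcr3-/- libraries, and -0.41 to -0.30. The cause of these changes was not tested.

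Replicate numbers did not pair the samples: correlations of same-numbered libraries were -0.082 to 0.018 over 9 pairs, and of others -0.038 to 0.083. With the replicate block 7 members were lower in Cxcl10-/- against WT. With median standard errors of 0.78 at 2 to 4 FPKM, a change of 2-fold was within reach of few of the weakly expressed members.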

Other observations

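In Cxcl10-/- against WT the low values were not limited to the chosen symbols. The 17 Zfp genes with a letter after the number and a mean of at least 2 FPKM had a median log2 fold change of -0.70 in Cxcl10-/- against WT, with 16 of 17 negative and 2 called lower (11.8%, beside 3.70% of all tested genes), Zfp322a (-1.32 ± 0.28, adjusted p = 0.0172) and Zfp518a (-1.43 ± 0.31, adjusted p = 0.0184). Another 48 genes with a KRAB A box and C2H2 fingers carry other names, and their median was -0.86, with 39 negative and 5 called lower (10.4%). The lowest p among these belonged to A630089N07Rik (-3.82 ± 0.64, adjusted p = 0.00646) and 2610021A01Rik (-2.48 ± 0.45, adjusted p = 0.00884), and the others were Gm14434, Gm4724 and Gm17655. With the GC and length correction the medians of these groups were -0.12 and -0.07, below the 0.21 of all tested genes. Their median GC contents were 39.9% and 39.8%.

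Zinc finger families named in other ways, with 2 FPKM or more, had medians between -0.23 and 0.28, where all tested genes had 0.06. The median was -0.10 over 28 Zbtb genes (2 lower), -0.23 over 12 Zscan and Zkscan genes (1 lower; 2 of them, Zkscan14 and Zkscan5, are also among the 48 above, and the other 10 had -0.50), 0.21 over 10 Klf genes (2 higher, 1 lower), 0.04 over 14 Zc3h genes (1 lower), -0.12 over 57 Rnf genes (1 higher, 1 lower) and 0.28 over 16 Zdhhc genes (none called). Zfp36, which encodes the mRNA-decay factor tristetraprolin and was left out of the members by the rule, was higher in Cxcl10-/-. It measured 2.43, 3.60 and 4.69 FPKM in WT, 29.2, 34.6 and 9.11 FPKM in Cxcl10-/- and 10.5, 7.93 and 3.26 FPKM in Cxcr3-/- (log2 fold change against WT 2.72 ± 0.55, adjusted p = 0.0135).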
